A study of Homo sapiens with 36 samples.

Results

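The replication-dependent histone genes encode the bulk of the H1, H2A, H2B, H3 and H4 proteins that package newly made DNA. Their accessibility was followed by ATAC-seq, in which a transposase cuts open chromatin and inserts sequencing adapters, in 36 libraries of BT549, an established triple-negative breast cancer cell line. The members were all protein-coding genes on chromosomes 1 and 6 whose symbols carry the prefixes H1-, H2AC, H2BC, H3C or H4C followed by a number. This gave 68 genes out of 19974 protein-coding genes: 13 on chromosome 1 and 55 on chromosome 6, with 18 H2B, 17 H2A, 14 H4, 13 H3 and 6 H1 genes. Peaks whose centre lay in such a gene or within 5 kb of either end were merged within each experiment into member regions. There were 128 of these among 204358 regions in the GATA6 experiment, 123 among 189959 in the BRM014 experiment and 117 among 128681 in the ATPase knockdown experiment.

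The GATA6 experiment held 4 groups of 3 libraries: control siRNA with vehicle (siCtl, Veh), control siRNA with 500 nM dexamethasone for 2 h (siCtl, +DEX), and GATA6 siRNA with vehicle (siGATA6, Veh) or with the same dexamethasone treatment (siGATA6, +DEX). Dexamethasone (DEX) is a synthetic glucocorticoid that activates the glucocorticoid receptor. The GATA6 knockdown used a SMARTpool, a mix of several siRNAs, for 72 h. The BRM014 experiment held 4 groups of 4 libraries: DMSO, 10 µM BRM014 for 4 h, DEX+DMSO and DEX+BRM014, with 500 nM DEX for 4 h in both DEX groups. BRM014 inhibits BRG1 and BRM, the ATPases that drive the SWI/SNF chromatin remodelling complexes, and DMSO is its solvent. In the ATPase knockdown experiment, 4 libraries with control siRNA (siCtl) were set against 4 with siRNAs to both ATPases (siBRG1+siBRM). The duration of that knockdown is not given in the sources used here. All groups are of the same cell line, labelled as wild type. The labels number the libraries of a group as biological replicates without naming separate cultures, so the spread between them is that of these libraries. Peak lists do not show how far GATA6, BRG1 or BRM protein had fallen.

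Replication-dependent histone genes lie in dense clusters, often as divergent H2A and H2B pairs that share one promoter. They are transcribed mainly in S phase, when the factor NPAT gathers at them in the histone locus body, and their short, intronless mRNAs end in a stem-loop bound by SLBP instead of a poly(A) tail. Known promoter elements include the TATA and CCAAT boxes, an octamer read by the POU2F1 (OCT1) complex in H2B promoters, an AAACACA element of H1 promoters and a GGTCC-containing subtype element of H4 promoters that HINFP reads.

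RefSeq entries of GRCh38.p14 gave a promoter sequence for 63 of the 68 genes, and H4C1, H4C3, H2AC12, H3C11 and H3C12 had none. The 250 bases before the start site are given below for 6 genes. H1-3 and H4C12 had the strongest peaks of their families in DMSO cells, and H2BC8 and H3C2 stand for a divergent H2A and H2B promoter and for an H3 promoter. H1-1 is the gene whose peak was lost with BRM014, and H2BC6 had no peak in any library. Capitals mark the exact letters of the TATA box (TATAAA), the CCAAT box (CCAAT), the octamer (ATTTGCAT), the H1 element (AAACACA) and the H4 element part (GGTCC), or their reverse complements, each marked in the family it belongs to.

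H1-3 (chr6:26234988-26235237, minus strand): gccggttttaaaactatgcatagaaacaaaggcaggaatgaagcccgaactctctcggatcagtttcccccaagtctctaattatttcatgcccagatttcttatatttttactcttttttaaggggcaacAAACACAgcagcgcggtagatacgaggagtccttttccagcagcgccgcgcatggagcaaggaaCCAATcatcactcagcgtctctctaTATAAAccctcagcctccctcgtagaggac

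H1-1 (chr6:26017788-26018037, minus strand): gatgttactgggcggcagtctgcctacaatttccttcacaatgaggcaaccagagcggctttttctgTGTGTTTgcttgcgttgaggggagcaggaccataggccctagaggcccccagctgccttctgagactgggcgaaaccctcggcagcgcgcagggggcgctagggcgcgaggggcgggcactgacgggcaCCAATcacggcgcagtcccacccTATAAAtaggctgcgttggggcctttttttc

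H2BC8 (chr6:26216689-26216938, minus strand): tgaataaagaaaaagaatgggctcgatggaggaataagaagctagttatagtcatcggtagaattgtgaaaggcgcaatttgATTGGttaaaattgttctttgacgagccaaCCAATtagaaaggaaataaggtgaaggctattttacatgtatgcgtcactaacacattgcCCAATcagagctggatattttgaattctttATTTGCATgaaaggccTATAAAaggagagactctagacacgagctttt

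H3C2 (chr6:26032100-26032349, minus strand): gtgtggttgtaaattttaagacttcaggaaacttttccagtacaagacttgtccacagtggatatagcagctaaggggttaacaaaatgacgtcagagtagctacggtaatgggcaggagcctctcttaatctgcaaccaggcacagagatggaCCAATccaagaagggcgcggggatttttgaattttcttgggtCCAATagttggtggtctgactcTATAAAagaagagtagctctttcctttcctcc

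H4C12 (chr6:27831561-27831810, minus strand): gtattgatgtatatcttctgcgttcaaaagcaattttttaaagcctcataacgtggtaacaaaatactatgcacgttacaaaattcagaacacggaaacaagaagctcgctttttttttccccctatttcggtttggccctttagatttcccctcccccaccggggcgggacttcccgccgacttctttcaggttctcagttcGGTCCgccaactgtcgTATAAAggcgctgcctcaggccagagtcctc

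H2BC6 (chr6:26183511-26183760, plus strand): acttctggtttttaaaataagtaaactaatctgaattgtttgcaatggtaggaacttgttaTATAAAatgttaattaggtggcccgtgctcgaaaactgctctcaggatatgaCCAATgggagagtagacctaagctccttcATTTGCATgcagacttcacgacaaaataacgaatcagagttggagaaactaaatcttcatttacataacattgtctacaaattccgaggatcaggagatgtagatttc

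The families differed in their promoter elements, counted as exact letters on either strand within the 300 bases from 250 before to 50 after the start. TATAAA was present in 65.1% of member promoters (41 of 63) and in 12.0% of all 27305 promoters of the same length. CCAAT was present in every H1, H2A, H2B and H3 promoter of the table but in 3 of 12 H4 promoters, against 35.7% of all promoters. The octamer was present in 14 of 18 H2B and 11 of 16 H2A promoters, in 1 of 11 H3 promoters and in no H1 or H4 promoter, against 1.80% of all promoters. Because divergent H2A and H2B genes share their promoter bases (13 pairs of overlapping windows), these counts are not independent. AAACACA was present in 6 of 6 H1 promoters, 1 H2A promoter and 2 H3 promoters, against 5.76% of all. GGTCC was present in 11 of 12 H4 promoters, against 46.1% of all promoters, and TTCAATC, another part of the H4 element, in 2 of 12 against 1.91%. TTCAATC was also present in 2 of 16 H2A, 2 of 18 H2B and 1 of 11 H3 promoters. The 2 H4 promoters with it, H4C14 and H4C15, have the same bases throughout. The member promoters were also poorer in G and C than others, with a median of 43.0% GC and 11 CpG dinucleotides, against 62.7% and 22 over 15813 protein-coding promoters. A motif match is a description of the letters and shows no bound factor.

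**Figure D1:**
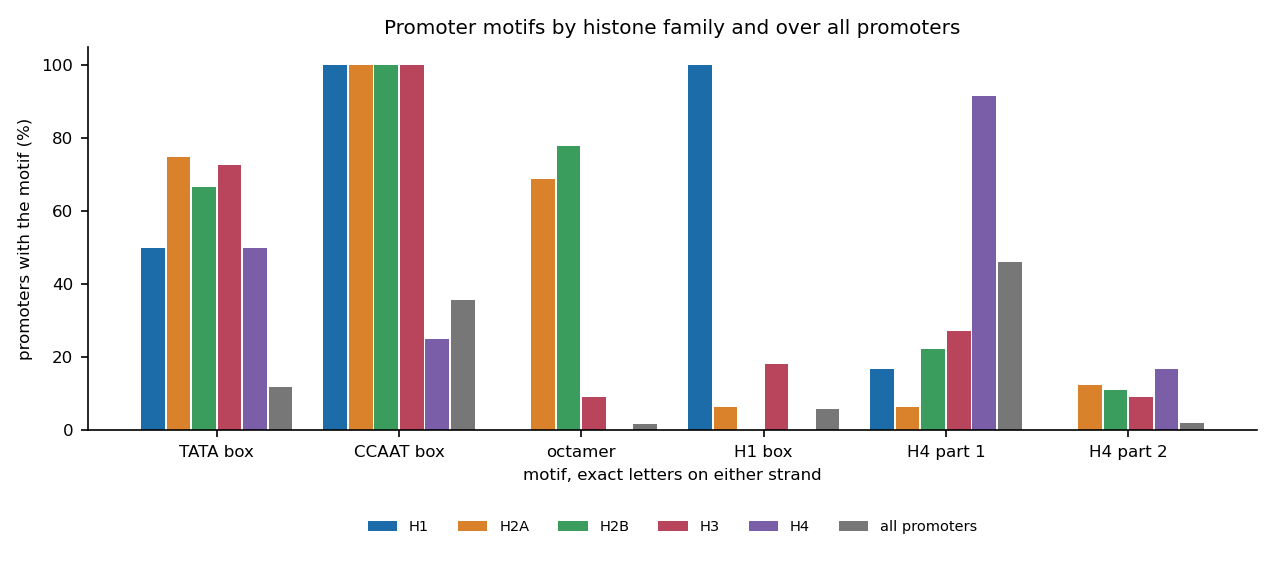
Percent of promoters (vertical axis) that hold each exact motif on either strand (horizontal axis), as 1 bar for each histone family and 1 for all 27305 promoters. The CCAAT bars reach 100 in H1, H2A, H2B and H3 and 25 in H4, the octamer bars are highest in H2B and H2A, and the H1 box bar in H1.

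Most member genes were accessible in every library. A peak at the gene, meaning one that overlapped the gene or 250 bp on either side, was present in all 36 libraries for 57 of 68 genes (83.8%), against 63.5% of protein-coding genes. Each library held a peak at 58 to 62 of the 68 genes, with a median of 59.5. By the promoter window alone, 49 of the 63 genes with an entry (77.8%) had a peak in all 36 libraries and 7 (11.1%) in none, against 48.5% and 30.5% of protein-coding genes. Among comparison lists, 90 of 95 ribosomal protein genes, which include 10 genes for RPS6K kinases caught by the same prefix, had a peak in all 36 libraries. So did 10 of the 14 replication-independent histone genes found in the table, while H3-4 and H3-5 had none. Of 26 genes for factors that act on histone transcription or histone mRNA, such as NPAT, SLBP and LSM10, 25 had a peak in all 36 libraries, and CPSF2, a subunit of the cleavage complex, in 35.

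The 6 genes with no peak in any of these lists were spread over 4 families, and all lie on chromosome 6. H2AC1 (chr6:25726063-25726562) and H2BC1 (chr6:25726777-25727345) form one divergent pair that encodes the testis-specific H2A and H2B, and H1-6 (chr6:26107412-26108135) encodes the testis-specific H1. The others were H2BC6 (chr6:26183761-26184230), H4C7 (chr6:26246611-26246996) and H4C9 (chr6:27139282-27139678). The H2BC6 promoter printed above contains the letters of the TATA box, the CCAAT box and the octamer. Its TATAAA lies far from the start site, whereas the other promoters printed have theirs close to it. Median GC over the 6 promoters was 46.0%, with 11.5 CpG, and the 52 promoters of genes with a peak in every library had 42.8% and 11.5.

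Another 5 genes had a peak in some libraries. H3C6 (chr6:26224178-26227473) had one in all 12 libraries of the GATA6 experiment, at a fold enrichment of 4.40 to 10.9, and in none of the other 24. H4C6 had one in 5 libraries, all of the GATA6 experiment, at 3.31 to 5.68. H3C8 had one in 33 libraries, H4C13 in 27 and H1-1 in 27. The peak lists of the GATA6 experiment were also the longest, at 114113 or more peaks each. Their recovered genome background (described below) was higher too, at 0.492 to 0.677 against 0.235 to 0.335 in the other libraries. The parts of list length and depth in these differences were not tested.

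The strength of a peak is given as the peak caller's own fold enrichment, the read pileup at the summit over the local background, and as the authors' −log10 q. Both describe a peak within its own list and were not tested between libraries. The median over member genes held by every DMSO library was 10.6, with gene means from 4.35 at H1-1 to 21.8 at H2BC18. The corresponding medians were 10.2 in BRM014, 10.2 in siCtl and 10.1 in siBRG1+siBRM libraries, each over the genes that group held.

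In the H1 family, H1-3 (chr6:26234212-26234987), a somatic linker histone gene, was highest and H1-1 (chr6:26017032-26017787), another somatic H1 gene, lowest. H1-3 had folds of 15.9, 15.2, 19.4 and 20.8 in the DMSO libraries (17.8 ± 2.68, SD, n = 4) and of 13.9, 16.8, 16.6 and 16.8 with BRM014. With DEX it had 20.6, 19.3, 17.9 and 21.8 without BRM014 and 15.9, 17.3, 19.0 and 20.1 with it. In each pair the groups overlapped. In the 12 libraries of the GATA6 experiment its fold ran from 15.4 to 25.4 with a median of 21.4. Its −log10 q in DMSO was 47.4 ± 10.5 (SD, n = 4), against 6.43 ± 1.31 (n = 4) at H1-1, whose peak stood at percentile 13.1 of its libraries' peaks by fold.

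In the H2A family, H2AC25 (chr1:228457364-228457873) was highest. It lies away from the main clusters and shares its peak with the divergent H2BC26. Its folds were 18.2, 18.0, 17.2 and 21.5 in DMSO (18.7 ± 1.91, SD, n = 4) and 17.2, 18.6, 17.4 and 17.7 with BRM014 (17.7 ± 0.61, SD, n = 4), and the groups overlapped. The lowest H2A gene was H2AC14 (chr6:27814302-27814777), which shares its peak with H2BC14, the lowest H2B gene. That peak had 8.27, 8.07, 7.09 and 8.31 in DMSO and 7.02, 7.35, 5.96 and 6.48 with BRM014, so that 1 BRM014 library lay above the lowest DMSO library.

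In the H2B family, H2BC18 (chr1:149782689-149812370) was highest, with 21.4, 18.1, 21.7 and 25.8 in DMSO, 17.7, 24.6, 23.6 and 13.4 with BRM014, and 25.8 to 32.8 in the GATA6 experiment. This gene model is long, and the strongest peak lay inside it, at a median of 19339 bp from the start. In 13.9% of libraries, however, it lay within 250 bp upstream of the start. BRM014 replicate 4, with a fold of 13.4, was among these, so the BRM014 folds do not all describe the same site. At its promoter window H2BC18 had a fold of 17.6 ± 1.84 (SD, n = 4) in DMSO and 15.0 ± 1.43 (SD, n = 4) with BRM014. In all, 8 gene models exceed 2 kb, so a peak at such a gene need not be at its promoter.

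In the H3 family, H3C11 (chr6:27871845-27872346) was highest and H3C14 (chr1:149840687-149841208) lowest. H3C11 had 16.6, 14.9, 18.3 and 16.9 in DMSO and 12.8, 16.1, 10.9 and 12.8 with BRM014. Its siCtl libraries had 18.6, 16.6, 16.6 and 14.9, and its siBRG1+siBRM libraries 13.6, 11.4, 11.1 and 12.9. The knockdown libraries were all below their controls, while 1 BRM014 library overlapped the DMSO range. H3C14 had 5.40, 5.74, 6.23 and 6.33 in DMSO and 6.87, 5.86, 6.66 and 6.89 with BRM014, overlapping.

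In the H4 family, H4C12 (chr6:27831174-27831560) was highest, with 19.4, 19.0, 20.5 and 20.2 in DMSO (19.8 ± 0.70, SD, n = 4) and 14.6, 18.4, 17.0 and 10.8 with BRM014 (15.2 ± 3.32, SD, n = 4). All 4 BRM014 libraries were lower than the DMSO libraries. In the presence of DEX the order did not hold: 17.6, 21.2, 19.98 and 17.9 without BRM014 and 19.9, 20.8, 21.0 and 19.2 with it. H4C2 (chr6:26026896-26027283) was the lowest H4 gene held by every DMSO library. Its folds were 6.91, 6.91, 5.74 and 5.57 in DMSO, 7.68, 7.45, 7.44 and 6.56 with BRM014, 5.78, 7.17, 7.04 and 5.53 with siCtl and 5.06, 4.84, 4.55 and 4.29 with siBRG1+siBRM. It was thus on the high side under the inhibitor and below every control library under the knockdown.

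**Figure D2:**
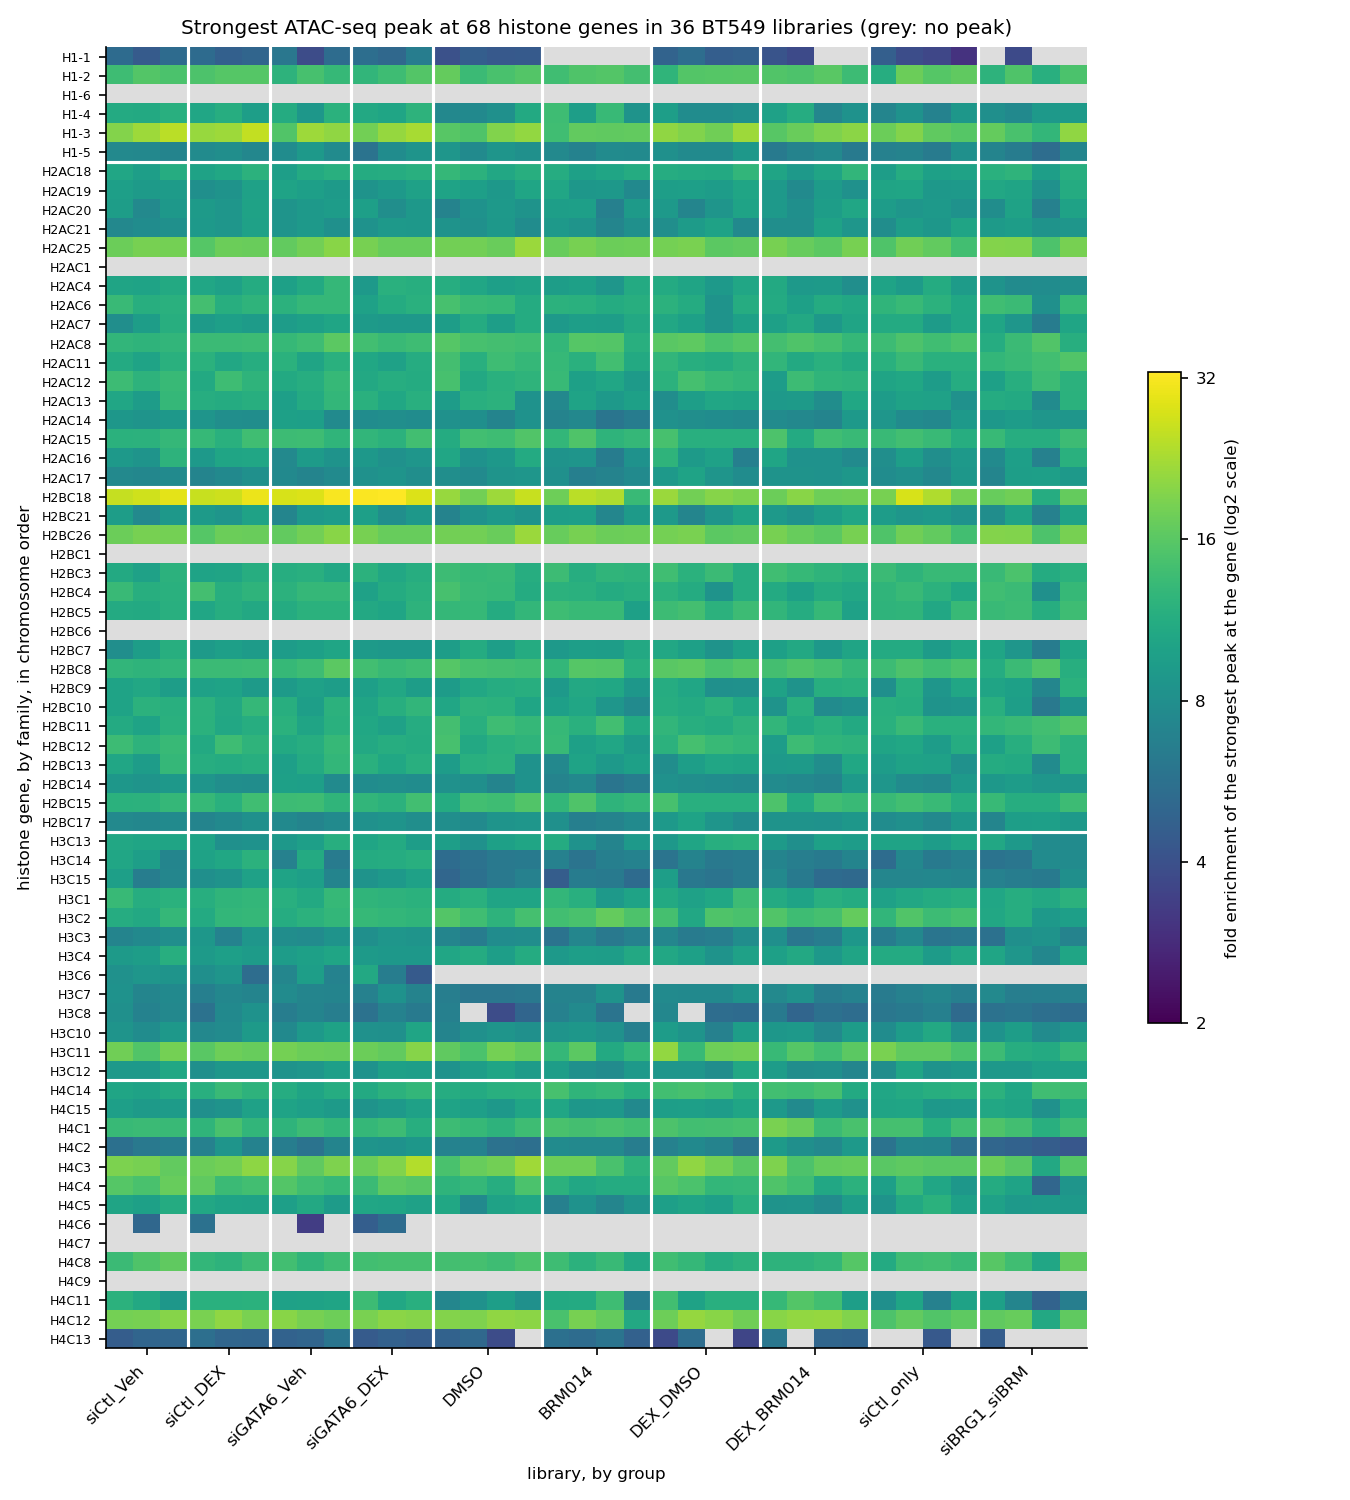
Fold enrichment of the strongest peak at each of the 68 histone genes (rows, by family and chromosome order) in each of the 36 libraries (columns, by group), with grey where there was no peak. The 6 genes without a peak are grey throughout, H3C6 is coloured in the 12 libraries of the GATA6 experiment, and H1-1 is grey in all 4 BRM014 libraries.

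Because the genes are packed closely, many shared a peak. In each library 24 to 31 member genes had the same strongest peak as another member, and the genes held 45 to 48 distinct peaks. Copies at separate places are also nearly identical: the promoter windows of H4C14 and H4C15 are the same over 300 of 300 bases, those of H2AC18 and H2AC19 and of H3C14 and H3C15 share runs of 296 bases or more, and those of H4C11 and H4C12 have the same base at 295 of 300 positions. H4C14 had a promoter peak in all 36 libraries and H4C15 in 0. How the authors placed reads that match both copies is not given in the sources used here, so the values of these 8 genes, those of H4C12 above and of H3C14 among them, are uncertain. H4C15 has a peak at the gene through its long model, which spans H2AC19 and H3C15.

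Summits sat close to the start sites in most families. Of the 57 genes with a peak in at least 1 library and a known start, 33 had their median summit within 250 bp upstream, 14 within 250 bp downstream and 10 farther away. Median positions over genes were −10.5 bp in H1, −46.0 in H3, −91.3 in H2B and −121 in H2A, where a negative value is upstream. H4 genes had a median of 265.8 bp downstream, and 5 of 10 had their summit beyond 250 bp, among them H4C2 at 286 and H4C11 at 464.5. The 5 include H4C15 at 10276.5, whose strongest peak is that of H2AC19 within its long model. They also include H4C14 at 283, one of the near-identical copies. H4C4 (−75.0), H4C5 (−104) and H4C8 (80.0) had theirs close to the start.

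The histone genes also stood in regions of high local background. Fold and p together allow the pileup at each summit and the peak caller's local background to be recovered, which succeeded for 99.5% to 99.96% of peaks in a library. The local background at the strongest peaks of the member genes was 6.60 to 20.5 times the genome background (medians of the 36 libraries, with a median of 14.5), against 1.82 to 2.80 times over all peaks. In DMSO libraries the gene means ran from 2.80 times at H2BC18 to 29.9 times at H2BC21 and H2AC20. The lowest library values were 6.60 in siBRG1+siBRM replicate 3 and 8.88 in BRM014 replicate 4, which were also the shortest lists of their experiments, with 37184 and 41026 peaks. Since fold divides by this local background, the genes ranked differently by fold and by pileup: their median percentile among all peaks of a library was 52.5 to 67.0 by fold (median 60.0) and 81.1 to 93.3 by pileup (median 89.1). Median pileup over the genome background was 97.1 to 290.3 at the member genes and 34.0 to 60.7 over all peaks.

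**Figure D3:**
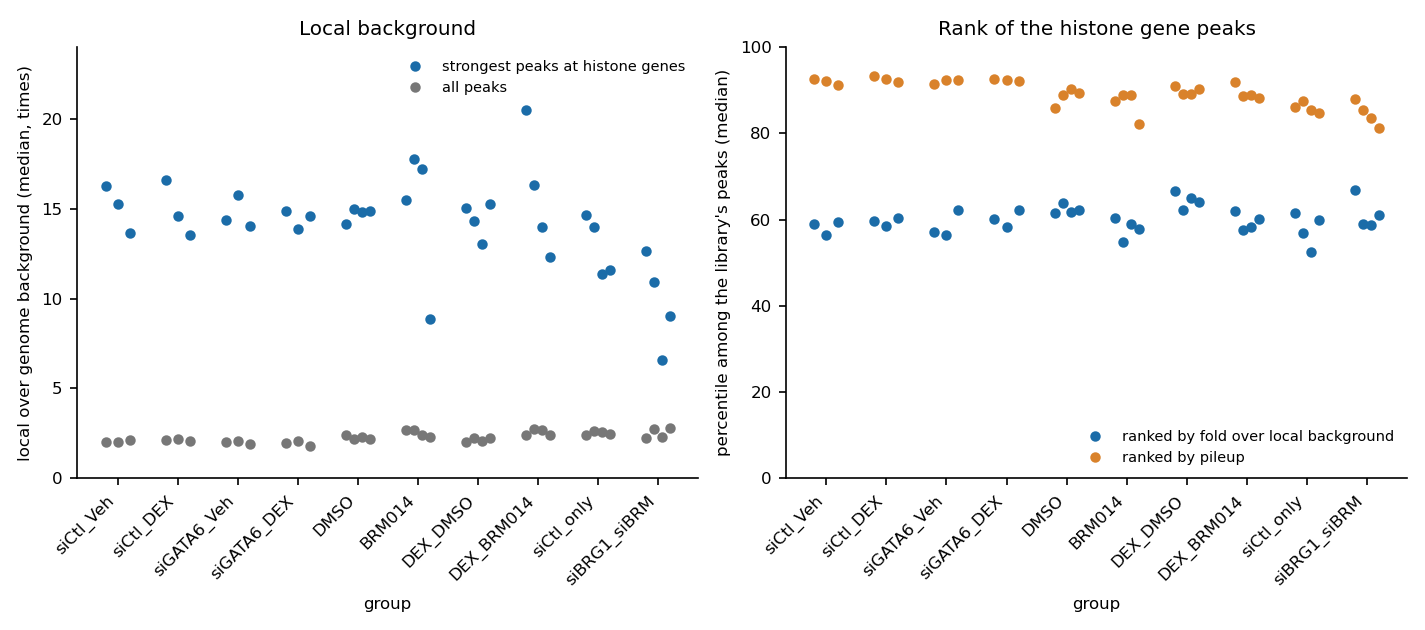
Left, the local background as a multiple of the genome background at the strongest peaks of the histone genes and at all peaks, with 1 point for each library by group. Right, the median percentile of the histone peaks among all peaks of the same library, ranked by fold or by pileup. The histone points lie at 6.60 or above on the left and all-peak points at 2.80 or below, and ranks by pileup exceed those by fold in every group.

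BRM014 was set against DMSO with and without DEX. Few histone regions were gained or lost, while the lists as a whole were shorter with BRM014. A region was called lost when every control library and no treated library held a peak, and gained in the opposite case. With BRM014, 1 of 123 member regions was lost and 1 gained, against 8.39% of all regions lost and 0.0321% gained (8.42% either way). In the presence of DEX, BRM014 changed 0 member regions, against 9.21% of all regions lost and 0.0632% gained (9.27% either way). An exact test of presence, with libraries permuted within each DEX level and Benjamini-Hochberg adjustment over 160948 regions, called 9.43% of regions (9.41% held less often and 0.0217% more often with BRM014) and 0 of the 59 member regions that varied. At an unadjusted two-sided p under 0.05 it had 7 of these 59 member regions, against 32393 of all 160948 regions. The smallest adjusted p among members was 0.0533. The calls have no value for strength, and the member regions were also stronger by pileup than most, whose part in these counts was not tested.

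Retention counted the regions that a control group held in full. Of 70 member regions held by every DMSO library, 65 (92.9%) were held by every BRM014 library, against 48.8% of all 64999 regions. At genes this was 52 of 53, and between genes 13 of 17. With DEX, 64 of 71 (90.1%) were kept, 52 of 54 at genes and 12 of 17 between genes, against 51.3% of all regions. By gene, 57 of the 58 members held by every DMSO library were held by every BRM014 library (98.3%), against 88.2% of protein-coding genes and 91 of 91 ribosomal protein genes.

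The share of member regions held in a library was 64.6% ± 1.05 (SD, n = 4) in DMSO and 64.4% ± 6.65 in BRM014, while that of all regions was 47.6% and 26.7%. By library it was 65.0%, 65.9%, 63.4% and 64.2% in DMSO and 64.2%, 72.4%, 65.0% and 56.1% with BRM014. The share over all regions lay outside the DMSO range in each BRM014 library, and that of the members did not separate the groups. Regions at a gene were at 67.9% and 71.8%, and regions between genes at 57.2% ± 5.84 and 48.0% ± 7.86 (SD, n = 4). With DEX, the between-gene share was 60.5% without and 50.7% with BRM014.

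**Figure D4:**
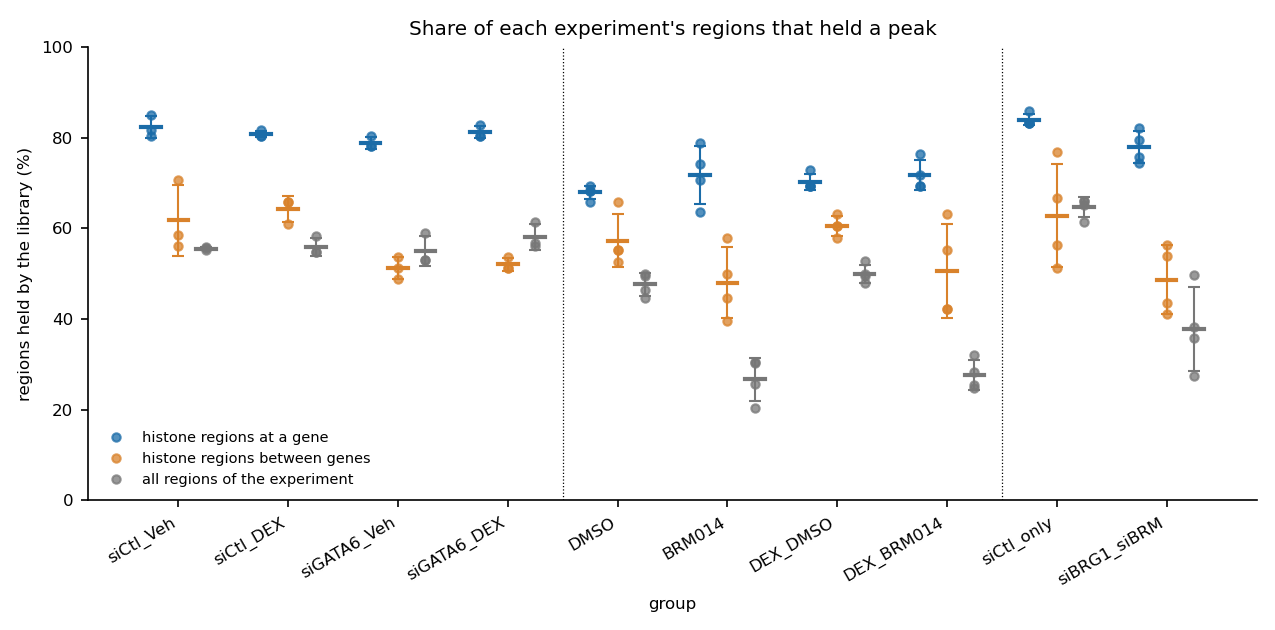
Percent of an experiment's regions that held a peak (vertical axis) in each library (points) by group, for member regions at a gene, member regions between genes and all regions, with the group mean as a bar and the SD as whiskers. From DMSO to BRM014 the means are 67.9% and 71.8% at genes, 57.2% and 48.0% between genes and 47.6% and 26.7% over all regions.

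The regions held by every library of the experiment were compared by fold. Of 64 such member regions, 50 had a lower mean fold with BRM014 than with DMSO, with a median log2 difference of −0.13, against −0.19 and 69.4% lower over 29011 regions. The 52 regions at genes had a median of −0.10, and the 12 between genes −0.29, with 12 of 12 lower. With DEX, the medians were −0.03 for members and −0.12 for all regions, and 37 of 64 were lower against 62.0%. On the scale of pileup over genome background, the medians were −0.14 for members and −0.33 for all regions without DEX. They were 0.03 and −0.24 with DEX, so the direction at the members turned with the scale in the presence of DEX. By library, median pileup at the strongest peaks of the genes was 183, 192, 206 and 207 times the genome background in DMSO. With BRM014 it was 202, 221, 221 and 117, and only replicate 4 lay below the DMSO range. With DEX the values overlapped, at 204, 198, 173 and 220 without BRM014 and 290, 216, 195 and 166 with it.

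Some of the 12 regions between genes had lower folds in every BRM014 library than in any DMSO library. A region 1265 bp from H2BC9 (chr6:26253340-26253533) had folds of 13.3, 12.7, 9.27 and 11.8 in DMSO and 7.52, 7.80, 5.91 and 5.54 with BRM014. With DEX it had 8.65, 10.5, 7.61 and 6.89, and 7.29, 6.64, 5.88 and 3.88 with BRM014 added. The groups were apart without DEX and overlapped with it. A region 1193 bp from H3C4 (chr6:26195406-26195591) had 8.75, 9.19, 9.03 and 9.54 in DMSO and 6.98, 5.83, 5.71 and 6.71 with BRM014. With DEX its values were 7.89, 7.10, 9.17 and 10.2, and 6.68, 6.80, 5.53 and 4.45 with BRM014 added, so the BRM014 libraries were lower in both settings. By contrast, a strong region 487 bp from H2BC5 within the antisense transcript H2BC6-AS1 (chr6:26171836-26172123) had 25.3, 25.7, 26.9 and 26.6 in DMSO and 22.6, 26.8, 30.2 and 19.5 with BRM014, which overlap. These 3 regions were picked after their values were seen.

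The region lost with BRM014 was the peak of H1-1 (chr6:26017597-26017913), whose promoter is printed above. Its folds were 3.99, 4.64, 4.39 and 4.39 in DMSO, and no BRM014 library held it. With DEX it had 4.87, 5.43, 4.64 and 4.78, and 4.14 and 3.76 in 2 of 4 libraries with BRM014 added. In the siCtl libraries it had 4.65, 3.89, 3.61 and 3.02, and 3.77 in 1 of 4 siBRG1+siBRM libraries. All 12 libraries of the GATA6 experiment held it, at 3.82 to 6.53. Fewer libraries held the peak with the inhibitor and with the double knockdown than in their controls, at a gene whose peak was weak in the controls too. In the exact test within DEX levels this region had p = 0.0061 and an adjusted p of 0.0533, past no threshold.

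The gained region lay 225 bp from H4C8 (chr6:26284629-26284901). Its folds were 5.19, 5.13, 5.07 and 4.94 with BRM014, no DMSO library held it, and 2 libraries of each DEX group did, at 4.88 and 3.81 without BRM014 and 4.76 and 6.24 with it. The count was thus 2 of 4 in both DEX groups. In the knockdown experiment the region at this place (chr6:26284618-26284835) went the other way: its folds were 4.28, 3.16, 4.34 and 5.26 in the siCtl libraries and 4.19 in 1 of 4 siBRG1+siBRM libraries. All 12 libraries of the GATA6 experiment held it, at 4.06 to 5.72. H4C8 itself had a peak in all 36 libraries.

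In the double knockdown no member region was called, but the mean share of member regions held and their mean pileup were lower than in the controls. Median pileup by library overlapped between the groups. With siBRG1+siBRM, 0 of 117 member regions were gained or lost, against 6.61% of all regions lost and 0.0272% gained (6.64% either way). No exact test across regions was run for this comparison. By gene, 58 of the 59 members held by every siCtl library were held by every siBRG1+siBRM library (98.3%), against 87.3% of protein-coding genes. Of 76 member regions held by every siCtl library, 66 (86.8%) were held by every siBRG1+siBRM library, against 48.6% of 59398 regions, with 54 of 59 at genes and 12 of 17 between genes. Per library, member regions were held at 76.9% ± 4.07 and 68.2% ± 4.75 (SD, n = 4), and all regions at 64.6% and 37.8%. Regions at a gene were held at 83.3%, 85.9%, 83.3% and 83.3% in siCtl and at 82.1%, 79.5%, 74.4% and 75.6% in siBRG1+siBRM libraries, so the groups did not overlap. The difference in means was −6.09 percentage points at genes, where BRM014 against DMSO gave 3.82. Between genes the means were 62.8% and 48.7%, and the groups overlapped. The members' difference was −8.76 points, against −0.20 for BRM014, and −26.8 over all regions. The difference between the inhibitor and the knockdown was not tested.

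Over the 66 member regions held by all 8 libraries of this experiment, the median log2 difference in fold was −0.07, with 42 lower, against −0.31 and 88.3% lower over all 28871. In pileup over genome background the medians were −0.39 and −0.47, with 65 of 66 members and 95.7% of all regions lower. These compare group means, and siBRG1+siBRM replicate 3 was lowest. By library, median pileup at the strongest peaks of the genes was 174, 182, 152 and 162 times the genome background in siCtl. In siBRG1+siBRM libraries it was 166, 156, 97.1 and 143, so the groups overlapped. The local background at the members was 9.80 ± 2.59 times the genome background in siBRG1+siBRM and 12.9 ± 1.68 in siCtl libraries (SD, n = 4), measured at the strongest peaks of the genes and not over these 66 regions. The gap between members and all regions was larger by fold than by pileup, and the part of background in it was not tested.

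With glucocorticoid for 4 h, 1 member region was gained at each BRM014 level, counts too small to set apart from the share over all regions. DEX+DMSO against DMSO had 1 member region gained and 0 lost of 123, against 1.33% and 0.383% of all regions (1.71% either way), and DEX+BRM014 against BRM014 had 1 gained and 0 lost, against 0.17% and 0.0763% (0.246% either way). In the exact test within BRM014 levels 0 member regions and 0% of all regions passed, the smallest adjusted p over all regions being 1. At an unadjusted p under 0.05 it had 1 of 59 member regions, against 3888 of 160948 regions. Of 70 member regions held by every DMSO library, 69 were held by every DEX+DMSO library, against 87.2% of all regions. Among the 64 member regions held by every library of the experiment, pileup over genome background was higher in DEX+BRM014 than in BRM014 at 55, with a median log2 difference of 0.15 against 0.04 over all 29011 regions. By fold 43 of 64 were higher, with medians of 0.05 and 0.02. These values compare group means, and the libraries of the groups overlapped. Median pileup at the strongest peaks of the genes was 202, 221, 221 and 117 times the genome background in BRM014. In DEX+BRM014 libraries it was 290, 216, 195 and 166. The lowest was BRM014 replicate 4 and the highest DEX+BRM014 replicate 1, so the 55 regions do not show a separation of the groups. For DEX+DMSO against DMSO the medians by pileup were −0.01 and −0.05, with 31 of 64 members higher. The comparisons against DMSO share their control libraries, as do those against siCtl, Veh, so their calls are given side by side only.

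The region gained with DEX+DMSO lay 1090 bp from H4C14, at chr1:149831458-149831567. It had folds of 2.98, 3.39, 3.68 and 4.10 with DEX+DMSO, no peak with DMSO, and 1 library in each BRM014 group, at 2.63 with BRM014 and 3.54 with DEX+BRM014. In the GATA6 experiment a region at the same place (chr1:149831482-149831581, 1076 bp from H4C14) had 2.98, 2.55 and 2.92 in siCtl, +DEX and no peak in the other groups. It was thus gained in siCtl, +DEX over siCtl, Veh and lost in siGATA6, +DEX against siCtl, +DEX. In both experiments these were weak peaks, with folds of 2.55 to 4.10, over a local background of 26.6 times the genome background in siCtl, +DEX, beside one of the near-identical gene copies. The region gained in DEX+BRM014 over BRM014 lay 1296 bp from H2BC5 within H2BC6-AS1 (chr6:26172645-26172899). It had 6.22, 5.10, 5.08 and 4.50 with DEX+BRM014 and 5.67, 5.87 and 5.00 in 3 libraries with DEX+DMSO. It had 5.13 and 4.57 in 2 DMSO libraries and no peak in BRM014.

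Over 2 h in the GATA6 experiment, DEX gained 2 and lost 0 of 128 member regions in control siRNA cells, against 2.1% and 0.681% of all regions (2.78% either way), a member share of 1.56%. In siGATA6 cells it changed 0 of 128, against 2.02% gained and 0.509% lost (2.52% either way). The exact test within siRNA levels called 0 member regions and 0% of all. At an unadjusted p under 0.05 it had 1 of 52 member regions, against 4444 of 132561 regions. With 3 libraries a group the smallest p this exact test can give is 0.005, and the smallest adjusted p over all 132561 regions was 0.286, so the 0 calls say little. Besides the region near H4C14, the other gain lay 1843 bp from H4C11 (chr6:27826323-27826499). It had folds of 4.93, 4.53 and 3.73 in siCtl, +DEX, and 3.75 and 4.04 in 2 of 3 siGATA6, +DEX libraries, and no vehicle library held it. Among the member regions it had the smallest p in that test, an unadjusted p of 0.02 in the exact test and an adjusted p of 0.597.

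GATA6 knockdown lost 2 and gained 0 of 128 member regions with vehicle, against 0.658% and 0.374% of all regions (1.03% either way), and lost 1 and gained 0 with DEX, against 0.597% and 0.566% (1.16% either way). In the exact test within DEX levels 0 member regions and 0% of all regions passed. At an unadjusted p under 0.05 it had 0 of 52 member regions, against 1062 of 132561 regions. The smallest p was again limited to 0.005 in this exact test, with adjusted p of 1 throughout, so the 0 calls do not show that the knockdown left these regions as they were. The regions lost with vehicle lay 312 bp from H3C3 (chr6:26046181-26046368) and 221 bp from H2BC8 (chr6:26215540-26215979). The first had 3.72, 3.01 and 3.54 in siCtl, Veh, 2.29 in 1 siCtl, +DEX library and no peak in siGATA6 cells. The second had 3.46, 3.61 and 3.48 in siCtl, Veh, 2.29 in 1 siCtl, +DEX library and 2.49 in 1 siGATA6, +DEX library. Both were weak and absent from 2 of 3 siCtl, +DEX libraries.

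The share of member regions held was lower in siGATA6 than in siCtl libraries, and the larger difference was at regions between genes. It was 75.8% ± 4.13 in siCtl, Veh and 70.1% ± 1.19 in siGATA6, Veh, and 75.5% ± 1.19 and 71.9% ± 0.78 with DEX (SD, n = 3), while all regions were at 55.5%, 55.0%, 56.0% and 58.1%. Of the 41 regions between genes, siCtl, Veh libraries held 58.5%, 70.7% and 56.1% and siCtl, +DEX libraries 61.0%, 65.9% and 65.9%. The siGATA6, Veh libraries held 51.2%, 53.7% and 48.8% and siGATA6, +DEX libraries 51.2%, 51.2% and 53.7%. The 6 siGATA6 libraries were all below the 6 siCtl libraries. Of these 41 regions, 19 were held by all 12 libraries and 11 by only 1. The part of such single peaks in the difference was not tested. Regions at a gene were held at 82.4% and 78.9% with vehicle and at 80.8% and 81.2% with DEX. The 76 member regions held by all 12 libraries differed by a median log2 fold of −0.01 with vehicle and 0.00 with DEX between siGATA6 and siCtl, and by −0.02 and 0.02 over all 71797 such regions. No test was run on the share over the members.

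**Figure D5:**
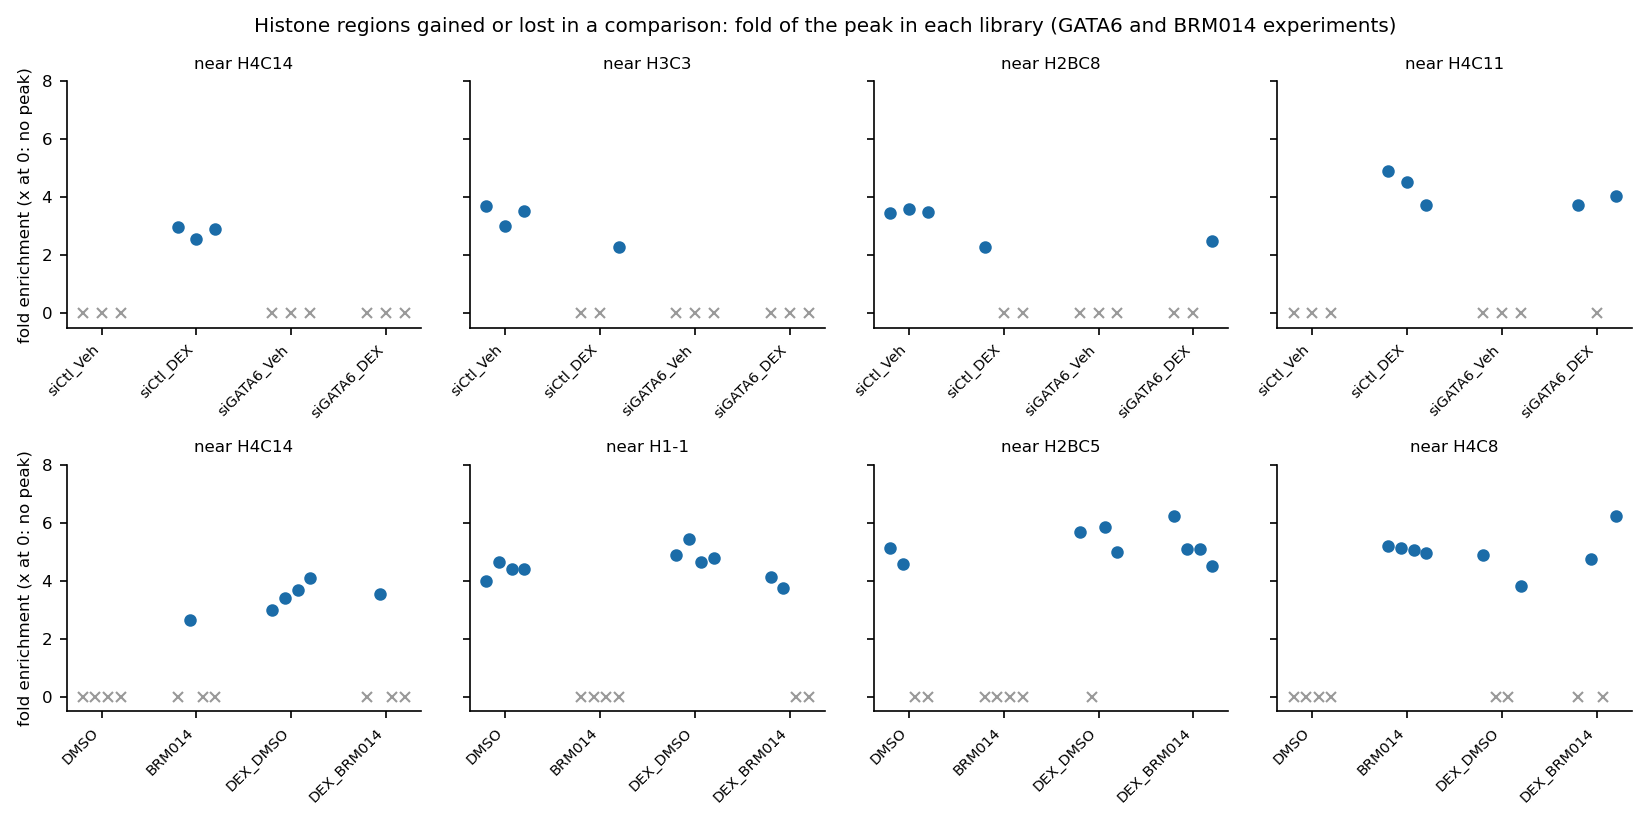
Fold enrichment of the peak (vertical axis, crosses at 0 for no peak) in each library by group, for the histone regions that were gained or lost in a comparison, each panel named by its nearest gene. The H1-1 panel shows 4 DMSO libraries at 3.99 to 4.64 and none with BRM014, and the H4C8 panel 4 BRM014 libraries at 4.94 to 5.19 and none with DMSO.

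Genes of the histone pathway elsewhere in the genome were read by the same calls, over the gene and 250 bp on either side. A longer gene can hold more regions, and only 8 of the 68 member gene models exceed 2 kb. The part of gene length in the shares below was not tested. With BRM014, 6 of the 26 factor genes had a lost region (23.1%) and 0 a gained one, against 21.7% of protein-coding genes with a changed region and 2 of 68 member genes (2.94%). They were E2F1, a cell cycle transcription factor, NFYB and NFYC, subunits of the CCAAT-binding NF-Y complex, NCBP2, a cap-binding subunit, SYMPK, the scaffold of the histone cleavage complex, and ERI1, an exonuclease that trims the histone mRNA stem-loop. The lost region at E2F1 (chr20:33685756-33685951) was held by 4 of 4 DMSO, 0 BRM014, 4 DEX+DMSO and 1 DEX+BRM014 libraries, at folds of 4.92 to 11.3. With DEX, BRM014 lost a region at 1 of 26 (ERI1), against 23.4% of protein-coding genes and 0 of 68 members. The double knockdown lost regions at ERI1 only among the 26, against 14.4% and 0 of 68.

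Among the 14 replication-independent histone genes, MACROH2A1, which encodes the macroH2A1 variant, lost regions with BRM014 both without and with DEX, and H3-3B, one of the H3.3 genes, with DEX. That was 7.14% of these genes without DEX and 14.3% with it. Of protein-coding genes, 21.7% and 23.4% had a changed region. One of the MACROH2A1 regions (chr5:135354114-135354697) was held by every DMSO and DEX+DMSO library, at folds of 15.0 to 20.3, and by none with BRM014. With DEX, regions were gained at NFYA and SYMPK in DMSO cells, at HINFP under BRM014, and at SYMPK and YY1 in siGATA6 cells. These were 7.69%, 3.85% and 7.69% of the 26 factor genes. Of protein-coding genes, 6.54%, 1.101% and 9.96% had a changed region in the same comparisons. The HINFP region was also held by 3 of 4 DMSO libraries. The YY1 region was held by 2 of 3 siCtl, Veh and 2 of 3 siCtl, +DEX libraries. Neither region was thus limited to cells with DEX. No factor gene or replication-independent histone gene had a changed region in siCtl cells with DEX at 2 h or in either GATA6 comparison.

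The lists held 37184 to 131423 peaks (median 93313), and no reads per library were used here, so depth was not measured. List length and the recovered genome background are its only traces. That background was 0.492 to 0.677 in the GATA6 experiment and 0.235 to 0.335 in the others. In the shortest lists it was 0.299 (BRM014 replicate 4, DMSO 0.241 to 0.305) and 0.309 (siBRG1+siBRM replicate 3, siCtl 0.242 to 0.335). Peaks were present at 8 of 8 mesenchymal markers and 6 of 6 proliferation markers in all 36 libraries, at 3 of 8 luminal, 1 of 5 endothelial and 5 of 6 leukocyte markers, with CD3E at 0. These windows take in the whole gene, so a peak there need not be at a promoter. BRM014 lists held 41026 to 60995 peaks against 88348 to 98220 in DMSO. With lists cut to an equal number of best peaks, the share of member regions held was higher with BRM014 than with DMSO by 14.8 percentage points, where the whole lists gave −0.20, and higher with the knockdown by 20.6, where they gave −8.76. That cut drops more peaks from the longer lists. The share over all regions after the cut is not given here, so these values do not show a gain at the histone genes.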

How the data were processed

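ATAC-seq peaks had been called in each of the 36 BT549 libraries on its own, so replicates were not pooled. The submitters' processing notes name bcl2fastq, SAMtools, HOMER and MACS2, and GRCh38 (hg38) as build. Versions, the aligner, the shifting of reads for the transposase, duplicate handling and MACS2 settings are all things not given in the sources used here. The deposited narrowPeak lists hold, for each peak, a fold (the ratio of summit pileup to local background), a −log10 p and a −log10 q, all as MACS2 gave them to the authors. No counts were used here, so no interval or detection limit for depth is given.

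Overlapping peaks from all lists of 1 experiment formed its regions, and any overlap of at least 1 bp put a region among those a library held. The 9 comparisons between groups used the all-or-none call over every region. The 4 tests across a factor used an exact two-sided test of presence within levels of the other factor, on regions not held by all libraries or by none, with Benjamini-Hochberg adjustment at 0.05. Summit pileup and local background were solved from fold and p by the Poisson tail and accepted within 0.002 of the deposited −log10 p, a step added after the data were seen. Gene models and promoter sequences came from RefSeq, GRCh38.p14. Calls and the pileup recovery were tested on simulated data. Python 3.11.15, numpy 2.4.6, pandas 2.3.3, scipy 1.17.1 and matplotlib 3.10.9 were used.

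The members and lists were chosen with earlier results of these data known. Any member could be named; values per library were given for every region called, for the member with the highest and lowest mean fold in DMSO in each family, and for members with no peak, and list genes were named where a region at the gene was called. Alternatives were peaks with −log10 q of at least 5, equal numbers of best peaks, 25% cover of a region, a 1 kb window, other gene extensions, a replicate block and leaving out each replicate. MDA-MB-231, a second line named in the design, was not analysed here.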

Additional observations from a re-analysis of the deposited data

Results flagged for a closer look

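Of 69 groups of 4 libraries tested for a library far from the others, 7 had one, and chance flags about 1 in 20 groups of untied values. In 3 of the 7 the value is a count of genes that is tied in 3 libraries and differs by 1 gene in the fourth, to which that rate does not apply. The number of member genes with a peak was 58 in BRM014 replicate 4, against 59 in the other 3, and it was 60 in DEX+BRM014 replicate 1 and in siCtl replicate 3 of the ATPase knockdown experiment, against 59 in the other libraries of their groups. The fold at H1-3 was 13.9 in BRM014 replicate 1 and 16.6 to 16.8 in the others. At H2BC18 it was 19.97 in DEX+BRM014 replicate 2, against 17.5 to 17.8. In siBRG1+siBRM replicate 3 it was 11.3 at H2BC18, against 17.0 to 17.9, and 10.9 at H4C12, against 16.5 to 17.1. That library had the shortest peak list, with 37184 peaks. The strongest H2BC18 peak was at the promoter in siBRG1+siBRM replicates 2, 3 and 4 and in DEX+BRM014 replicate 1. It lay farther inside the gene in the other libraries of these groups, so the H2BC18 values do not all describe the same site.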

How the results depend on the processing

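The alternatives gave 238 values close to those reported, within 1.5 times for a count or 1 SD for a share, and 53 that had moved. The count of 57 genes with a peak in all 36 libraries stayed between 47 and 58. With only peaks of −log10 q of at least 5, changed member regions numbered 0 for BRM014 against DMSO, for DEX+BRM014 against BRM014 and for DEX+DMSO against DMSO, 2 for DEX+BRM014 against DEX+DMSO and for siBRG1+siBRM, and 4 for siCtl, +DEX against siCtl, Veh; the exact test for BRM014 called 2, and the share held differed by −6.12 points for DEX+BRM014 against DEX+DMSO. With equal numbers of best peaks these counts were 5, 0, 0, 4, 3 and 4, the exact test for BRM014 called 7, 6 of them higher, and the share held differed by 14.8 points for BRM014 with or without DEX, 20.6 for siBRG1+siBRM, −3.31 for DEX at 2 h in siCtl and 0.551 in siGATA6 cells. A 25% cover gave 1 changed region for siBRG1+siBRM and 1 for siGATA6, +DEX against siGATA6, Veh. A 1 kb window left 0 for DEX+DMSO against DMSO, DEX+BRM014 against BRM014, siCtl, +DEX against siCtl, Veh and siGATA6, +DEX against siCtl, +DEX. By pileup the median percentile of the gene peaks was 89.1 in place of 60.0. Shares over all regions under these alternatives are not given here, so the moved values cannot be set against them. The causes were not tested.

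Leaving out 1 library gave 2 to 5 changed member regions for BRM014 against DMSO (5 without BRM014 replicate 4), 0 to 3 for DEX+BRM014 against DEX+DMSO (3 without DEX+DMSO replicate 3), 1 to 2 for DEX+BRM014 against BRM014, 1 to 1 for DEX+DMSO against DMSO and 0 to 2 for siBRG1+siBRM (2 without its replicate 1 or 2). In the GATA6 experiment it gave 2 to 4 for siCtl, +DEX against siCtl, Veh (4 without siCtl, Veh replicate 1 or siCtl, +DEX replicate 3), 1 to 3 for siGATA6, +DEX against siCtl, +DEX (3 without siGATA6, +DEX replicate 3), 0 to 2 for siGATA6, +DEX against siGATA6, Veh and 2 to 3 for siGATA6, Veh against siCtl, Veh. The exact test for BRM014 called 0 to 4 (4 without DEX+DMSO replicate 3), and the other 3 exact tests 0 to 0. The difference in share held ran from −2.85 to 2.57 points for BRM014 against DMSO, −3.59 to −0.61 with DEX, −1.96 to 3.46 for DEX+BRM014 against BRM014, −10.3 to −7.12 for siBRG1+siBRM and −7.29 to −3.39 for siGATA6, Veh against siCtl, Veh.

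With the replicate number as a block, changed member regions numbered 2, 1, 0, 1, 0, 2, 1, 0 and 2 over the 9 comparisons, as the all-or-none call is by construction the same within pairs, and the blocked exact tests called 0 in all 4. Neither bears on stability, nor do the 0 calls of the exact tests in the GATA6 experiment, where the smallest p is 0.005 with all libraries. Deviations of same-numbered libraries correlated at 0.0092 to 0.101 in the GATA6 experiment, −0.0174 to 0.0684 in the BRM014 experiment and −0.0504 to 0.0297 in the knockdown experiment. Only 1 pair passed the minimum of 0.1 set for pairing, so the numbers were not taken as pairs. In the GATA6 experiment, however, 30 of 36 best matches were with the same number, against 21 of 48 with BRM014 and 3 of 8 in the knockdown experiment. The median correlation there was 0.0290 for the same number and −0.0304 for different numbers. A weak block by number is thus present in the GATA6 experiment, and the main calls do not use it.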
